A study of Mus musculus with 12 samples.

Results

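Solute carriers are membrane proteins that move nutrients, ions, metals, vitamins and drugs across the plasma membrane and the membranes of organelles. The carriers described here are the solute carrier genes outside the mitochondrial SLC25 family in mouse bone marrow-derived macrophages. They were taken by name: a gene symbol starting with Slc or Slco and a digit, a mean normalized count of at least 10, no SLC25 gene, and none of Slc2a1, Slc3a2, Slc7a5, Slc7a11, Slc11a1, Slc11a2 and Slc40a1. This gave 158 genes of 14264 in the deposited tables, from 213 rows that matched the name. The other rows were 40 SLC25 genes, the 7 symbols just named and 8 rows below the minimum mean. Of the 158 genes, 154 encode carriers, and Slc2a4rg-ps, Slc4a1ap, Slc7a6os and Slc9a3r1 only carry the name.

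The study compared 4 groups of 3 libraries each: macrophages with a hairpin against MOF (shMOF) after lipopolysaccharide (LPS) at 100 ng/ml for 3 h, macrophages with a control hairpin (shCTRL) after the same LPS, unstimulated shMOF macrophages and unstimulated shCTRL macrophages. MOF is the lysine acetyltransferase that Kat8 encodes, and LPS is a bacterial product that macrophages sense through TLR4. The labels call the control genotype WT and the knockdown MOF depletion, and name no further hairpin and no rescue. They give no strain, age or sex of the mice. Nor do they tie libraries to animals or cultures, so the p-values describe the spread between these libraries only. RNA was taken from whole cultures, in which fewer cells of a type and less RNA per cell cannot be told apart.

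Each deposited table compares shMOF with shCTRL in 1 state by log2 fold change, standard error (SE) and adjusted p. Values given with an SE below are such log2 fold changes of shMOF over shCTRL unless they are called a difference. The tables hold no value per library or per group, so library depth is unknown and levels are known only as 1 mean normalized count per gene over libraries that the tables do not list. A gene is called below when its adjusted p from DESeq2's Wald test was under 0.05 over all genes of the table. The target Kat8 had a log2 fold change of -2.31 (SE 0.13) at LPS 3 h and of -2.25 (SE 0.10) unstimulated, from the authors' deposited table. All 9 macrophage markers checked were in the tables, with mean normalized counts from 1233 (Mertk) to 259735 (Lyz2). Of these 9, 6 rose and 1 fell at LPS 3 h, and 8 rose and 0 fell unstimulated. Of 29 markers of 7 other cell types, 8 were in the tables and the other 21 were not analysed here. Of the 8, 4 rose at LPS 3 h and 3 unstimulated, and 0 fell in either state. The collagen genes Col1a1 and Col1a2, with mean normalized counts of 559 and 667, rose by 0.52 and 0.36 at LPS 3 h and by 0.42 and 0.35 unstimulated, per the authors' deposited table. The B cell marker Cd79b, at a mean of 104, rose by 0.37 and 0.34, and the dendritic marker Zbtb46, at 43, by 0.70 at LPS 3 h, as the authors' deposited table lists it. Cdh5, S100a8, Pdgfra and Camp had mean normalized counts of 35 or less. The part of these changes in the carrier results was not tested.

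By numbered family, carriers group by what they move. SLC1, SLC6, SLC7, SLC15, SLC36, SLC38 and SLC43 are mostly amino acid and peptide carriers. SLC2 and SLC37 move sugars and sugar phosphates, and SLC16 moves lactate and other monocarboxylates. SLC35 is known for bringing nucleotide sugars into the Golgi apparatus and the endoplasmic reticulum (ER), though some of its members are orphans. SLC30 mostly lowers cytosolic zinc and SLC39 raises it. In macrophages such carriers supply arginine for nitric oxide and polyamines, export lactate during glycolysis, recycle heme and the contents of phagolysosomes, and move metals toward or away from ingested microbes.

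At LPS 3 h, 47 of the 158 genes rose with MOF knockdown and 48 fell. The share that rose, 29.7%, compares with 28.1% of all 13987 genes tested, and the share that fell, 30.4%, with 20.0%. Among the 12994 genes with the same minimum mean of 10, 29.8% rose and 21.3% fell. The rising share was thus at the background and the falling share above it. The median log2 fold change of the carriers was 0.02, against 0.03 for those 12994 genes. Their quartiles were -0.29 and 0.23, so most changes were small.

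In unstimulated cells 41 carriers rose and 31 fell. These shares were 25.9% and 19.6%, against 21.3% and 17.8% of all 14264 genes, and against 23.2% and 19.4% of genes with a mean of at least 10, so neither stood far from the background. The median was 0.02, against 0.03. Of the unstimulated calls 56.9% were rises. The share was 50% once the median of all genes, 0.03, was taken off each fold change. With the centre and width of the null taken from the Wald statistics of all genes, an empirical null, it was 27.3%, from 3 rises and 8 falls. These are 1.90% and 5.06% of the carriers, against 1.69% and 4.33% of the 12994 genes. At LPS 3 h that null left 7 rises and 6 falls, or 4.43% and 3.80%, against 3.25% and 1.59% of the 12994 genes.

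**Figure D1:**
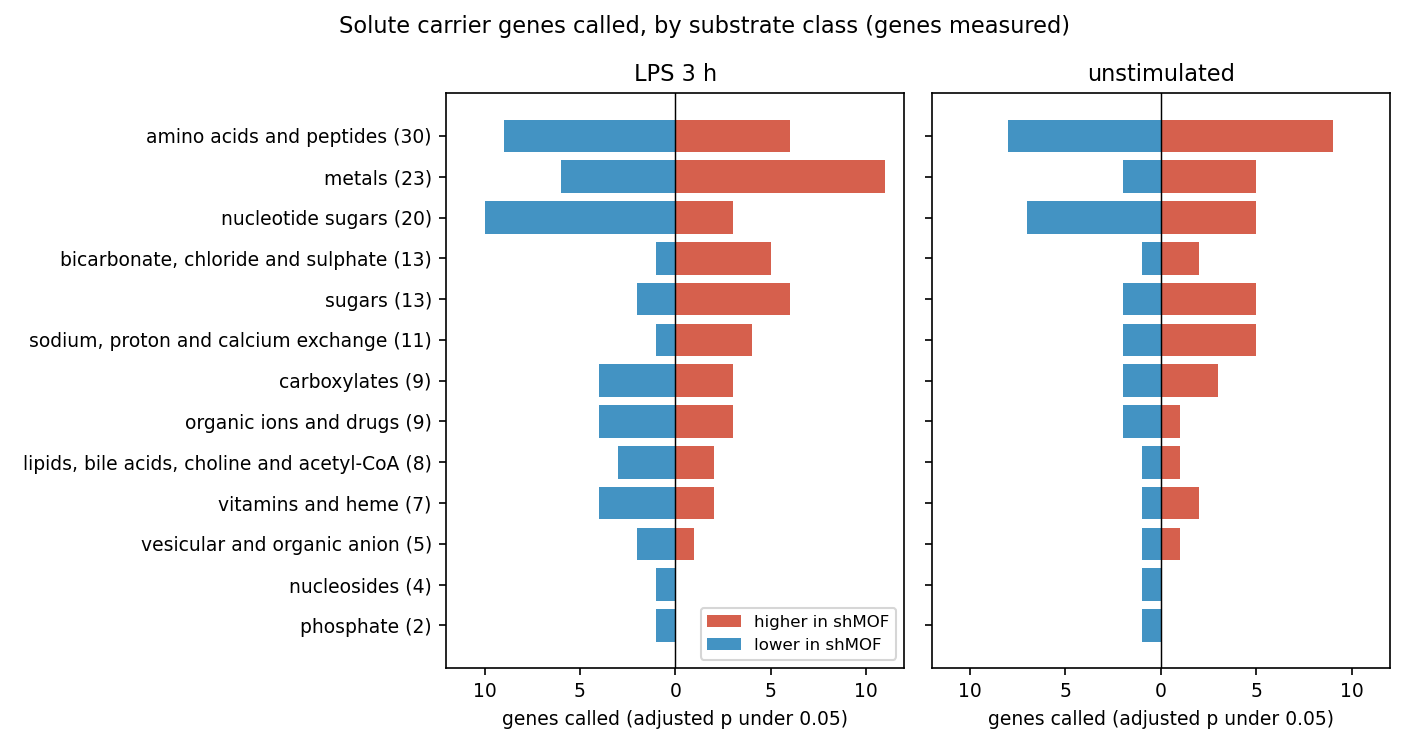
Number of solute carrier genes called at an adjusted p under 0.05 by substrate class, with genes higher in shMOF drawn to the right and genes lower in shMOF to the left, at LPS 3 h and in unstimulated cells; the number of genes measured stands in parentheses. Metal carriers had 11 rises and 6 falls at LPS 3 h, and the SLC35 genes, drawn as nucleotide sugar carriers though some are orphans, 3 rises and 10 falls. Of the 12994 genes with a mean of at least 10, 29.8% rose and 21.3% fell at LPS 3 h, and 23.2% and 19.4% unstimulated.

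At LPS 3 h 5 carriers rose by at least 2-fold and 6 fell by as much, which is 3.16% and 3.80% of them, against 1.97% and 2.78% of the 12994 genes with a mean of at least 10. In unstimulated cells 1 rose and 3 fell by as much, or 0.633% and 1.90%, against 0.716% and 2.68% of those genes. These few genes are near the background share. The largest rise past a mean of 50 was in Slco2b1, an organic anion carrier, at 2.11 (SE 0.20, adjusted p = 9.25e-24) at LPS 3 h and 0.66 (SE 0.12) unstimulated according to the authors' deposited table. Slco2b1 (ENSMUSG00000030737.17) spans chromosome 7, bases 99657804 to 99711340, on the minus strand of GRCm38. The sodium, calcium and potassium exchanger gene Slc24a3 rose to 2.43-fold of the control level at LPS 3 h, with 1.28 (SE 0.08), and had 0.63 (SE 0.08) unstimulated (values of the authors' deposited table). Slc46a3, a lysosomal carrier gene, rose in both states, by 1.16 (SE 0.13) at LPS 3 h and 0.86 (SE 0.13) unstimulated, going by the authors' deposited table.

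Among genes with a mean of at least 50, Slc43a3, Slc20a1 and Slc35a5 had large falls in both states. Slc43a3, which encodes a purine nucleobase carrier, had -1.16 (SE 0.10, adjusted p = 4.82e-30) at LPS 3 h and -1.49 (SE 0.10, adjusted p = 3.73e-49) unstimulated, from the authors' deposited table. This put Slc43a3 at 0.446-fold of the control level at LPS 3 h and 0.356-fold unstimulated, per the authors' deposited table. Slc20a1, the phosphate carrier PiT-1, had -1.07 (SE 0.09) and -1.08 (SE 0.09) in the same order, as the authors' deposited table lists it, and Slc35a5, an orphan of the nucleotide sugar family, had -1.04 (SE 0.07) and -0.93 (SE 0.06). The differences between states of Slc43a3, 0.32 (SE 0.14, adjusted p = 0.0647), Slc20a1, 0.01 (SE 0.12, adjusted p = 0.953), and Slc35a5, -0.11 (SE 0.09, adjusted p = 0.390), did not pass. Slc22a18 fell as well, with -0.74 (SE 0.15) at LPS 3 h and -1.01 (SE 0.14) unstimulated according to the authors' deposited table. Slc17a9, which loads nucleotides such as ATP into vesicles, fell further at LPS 3 h, at -1.66 (SE 0.19), than unstimulated, at -0.67 (SE 0.12) (values of the authors' deposited table), a difference of -0.99 (SE 0.22, adjusted p = 7.58e-05). Slc20a1 shares 13.1% of its exon bases with other annotated genes.

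Some large values rested on few reads and fall outside the rule for named genes; they were picked after their values were seen. Slc7a3, a cationic amino acid carrier gene with a mean normalized count of 17.5, had -2.44 (SE 0.79) at LPS 3 h, going by the authors' deposited table. Slc6a19, a neutral amino acid carrier gene at 11.2, had -2.40 (SE 0.76) and Slco5a1 at 16.9 had 1.01 (SE 0.37) in the same comparison of the authors' deposited table. Slc15a2, the peptide carrier PEPT2 at 40.1, rose by 0.68 (SE 0.26) at LPS 3 h and by 1.31 (SE 0.26) unstimulated, from the authors' deposited table. It was the one carrier that rose by at least 2-fold in unstimulated cells.

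The 2 states shared part of the pattern. Across the 158 carriers the log2 fold changes of the 2 comparisons had a Pearson's r of 0.38 and a Spearman's rho of 0.35, against 0.49 and 0.43 across the 12994 genes with a mean of at least 10; genes are not independent replicates and no p was taken. Called in both states were 16 carriers that rose and 19 that fell, or 10.1% and 12% of them, against 12.7% and 9.47% of the genes tested in both tables. A further 7 rose at LPS 3 h and fell unstimulated, and 7 did the reverse. These 14 are 4.43% and 4.43% of the carriers, against 2.42% and 1.52% of the genes tested in both tables. Of the 14, only Slc44a1 kept both calls under the empirical null. In a test for log2 changes beyond 0.25 only Slc44a1 and Slc7a1 kept both. At a threshold of 0.01 the LPS 3 h calls of Slc16a1, Slc16a13, Slc37a4 and Slc45a3 were lost, and the unstimulated calls of Slc31a1, Slc33a1 and Slc45a3. Of 158 carriers, 118 were called in at least 1 state.

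A test of the difference itself, the effect at LPS 3 h minus the unstimulated effect, found 29 carriers with a higher effect at LPS 3 h and 37 with a lower one. These are 18.4% and 23.4% of the carriers, against 18.2% and 12.4% of the 12994 genes. The share with a higher effect was at the background and the share with a lower effect above it. Among the 37 were 9 of the 16 measured lysosomal and endosomal carriers. The empirical null left 7 higher differences and 0 lower ones, where it left 1.92% and 0.446% of all 12994 genes, and 11 lower ones had an unadjusted p under 0.05 with it. The 7 were Slc44a1, Slc4a7, Slc30a4, Slc7a1, Slc38a2, Slc39a14 and Slc12a4.

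**Figure D2:**
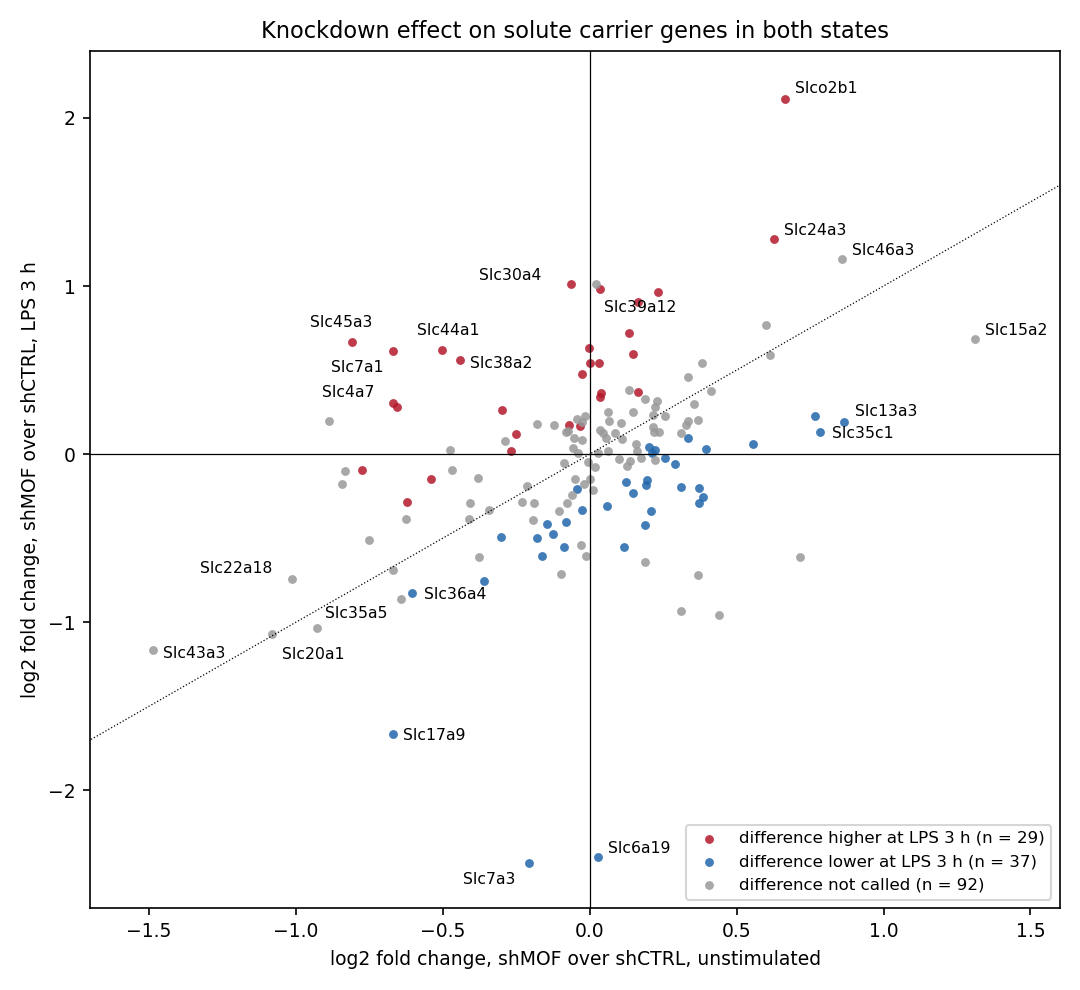
Log2 fold change of shMOF over shCTRL for the 158 genes, LPS 3 h on the vertical axis and unstimulated on the horizontal axis, coloured by the test of the difference; the dotted line marks equal effects. The upper left holds the carriers that rose at LPS 3 h and fell unstimulated, with Slc44a1, Slc7a1, Slc4a7 and Slc38a2 among them.

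The 7 carriers that rose at LPS 3 h and fell unstimulated bring in choline, cationic and neutral amino acids, bicarbonate and monocarboxylates, beside 2 genes of less certain cargo. Slc44a1, the choline carrier CTL1, gave the largest standardized difference: 0.62 (SE 0.04, adjusted p = 3.26e-61) at LPS 3 h and -0.50 (SE 0.04, adjusted p = 2.56e-28) unstimulated, per the authors' deposited table, a difference of 1.12 (SE 0.06, adjusted p = 3.15e-81). It has a mean normalized count of 7900 and spans chromosome 4, bases 53440413 to 53622478, on the plus strand of GRCm38. Slc7a1, the arginine and lysine carrier CAT-1 on chromosome 5, bases 148327410 to 148399904, on the minus strand of GRCm38, had 0.61 (SE 0.08) and -0.67 (SE 0.10) in the same order, as the authors' deposited table lists it, a difference of 1.28 (SE 0.13, adjusted p = 2.71e-21). Both were higher in shMOF than in shCTRL after LPS and lower in shMOF without it.

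Slc38a2, the sodium-coupled neutral amino acid carrier SNAT2 on chromosome 15, bases 96687392 to 96699730, on the minus strand of GRCm38, had 0.56 (SE 0.07) at LPS 3 h and -0.44 (SE 0.08) unstimulated according to the authors' deposited table, a difference of 1.002 (SE 0.11, adjusted p = 3.21e-19). Slc4a7, the sodium bicarbonate carrier NBCn1 on chromosome 14, bases 14702279 to 14799940, on the plus strand of GRCm38, had 0.30 (SE 0.04) and -0.67 (SE 0.06) (values of the authors' deposited table), a difference of 0.97 (SE 0.07, adjusted p = 3.95e-38). Slc16a1, the monocarboxylate carrier MCT1, had 0.28 (SE 0.11, adjusted p = 0.0168) and -0.66 (SE 0.12, adjusted p = 4.73e-07), going by the authors' deposited table. MCT1 carries lactate and pyruvate with protons in either direction. Slc35e4, an orphan of the SLC35 family, had 0.26 (SE 0.08) and -0.30 (SE 0.09), from the authors' deposited table. Slc45a3, with a mean normalized count of only 31.4, had 0.67 (SE 0.26, adjusted p = 0.0236) and -0.81 (SE 0.31, adjusted p = 0.0250), per the authors' deposited table; it shares 13.5% of its exon bases with another gene and all 3 of its calls were lost with adjustment over genes with a mean of at least 50, which leaves it out.

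The bases upstream of these 7 genes were read for letters of known response elements, and the stretches are printed below. The 7 genes were grouped by the direction of their calls, so their shared direction was set by that choice. RefSeq start sites on GRCm38.p6 gave windows of 250 bases for 120 of the 158 genes. A gene can have several windows, and these can overlap, so windows are not independent units. The letters TGACNNNGC on either strand, the core of the antioxidant response element bound by NFE2L2, were in at least 1 window of 6 of the 7 genes and in 6 of their 10 windows. They were in 25 of the 167 windows of all carriers and in 10.2% of all 32851 windows. Of the 7 windows of the 5 genes with the reverse pattern that have one, 0 held them. In the wider set of 25 genes with a higher difference at LPS 3 h, these 7 included, 10 of 41 windows held them. The 7 genes supplied 6 of those 10 windows, so the wider count is not separate from theirs. Outside the 7, the matches of the wider set were in Slc29a1, Slc30a1 and Slc39a8, and the windows of Slc30a4 and Slc12a4 had none. Among 28 genes with a lower difference, 2 of 33 windows held the letters. The match was noticed after 7 motifs had been searched, and the shares are not corrected for base composition. Capitals mark the letters TGACNNNGC on either strand, and each stretch runs 5′ to 3′ on the gene's strand with up to 36 bases on either side, ending at the start site where that is nearer. The Slc4a7 stretch lies upstream of a start site inside the gene, in introns of longer GENCODE transcripts, and the other stretches lie at or just before the gene's annotated start. Slc44a1, which has no match, is given over its full 250 bases.
Slc38a2 (chr15:96699729-96699791, minus strand): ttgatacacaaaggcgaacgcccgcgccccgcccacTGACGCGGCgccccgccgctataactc
Slc7a1 (chr5:148399905-148399951, minus strand): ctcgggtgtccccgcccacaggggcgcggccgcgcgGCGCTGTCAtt
Slc4a7 (chr14:14718683-14718763, plus strand): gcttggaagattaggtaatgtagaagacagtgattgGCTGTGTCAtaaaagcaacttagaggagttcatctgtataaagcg
Slc16a1 (chr3:104638421-104638501, plus strand): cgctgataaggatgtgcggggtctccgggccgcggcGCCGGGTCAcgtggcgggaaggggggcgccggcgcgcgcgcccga
Slc35e4 (chr11:3914702-3914782, minus strand): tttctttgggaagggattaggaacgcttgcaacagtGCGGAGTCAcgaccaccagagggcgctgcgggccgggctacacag
Slc45a3 (chr1:131962716-131962796, plus strand): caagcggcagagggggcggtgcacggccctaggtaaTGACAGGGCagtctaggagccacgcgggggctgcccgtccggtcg
Slc44a1 (chr4:53440163-53440412, plus strand): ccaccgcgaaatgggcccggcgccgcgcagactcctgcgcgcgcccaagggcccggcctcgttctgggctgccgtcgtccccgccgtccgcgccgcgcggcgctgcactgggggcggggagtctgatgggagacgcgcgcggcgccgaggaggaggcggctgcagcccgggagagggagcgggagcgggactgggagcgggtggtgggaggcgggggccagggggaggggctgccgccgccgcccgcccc

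The first base of the match lies 27 bases before the start site in Slc38a2, 11 in Slc7a1, 65 in Slc4a7, 207 in Slc16a1, 82 in Slc35e4 and 163 in Slc45a3. None of the 10 windows held the letters TGATGNAA of the C/EBP-ATF element, TGACGTCA of the cAMP response element or the kB site, which are in 3.45%, 1.55% and 7.25% of all windows. The AP-1 letters TGANTCA were in 1 of the 10 windows, that of Slc7a1, against 6.75% of all windows. The E-box letters CACGTG were in 1, that of Slc16a1, against 6.02%, and TGCGCNC of the metal response element in 3, those of Slc16a1 and Slc44a1, against 12.5%. The windows of Slc44a1 overlap almost wholly, so the same letters are counted more than once there. Both strands were searched for each motif. A match is a run of letters and not a bound site.

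**Figure D3:**
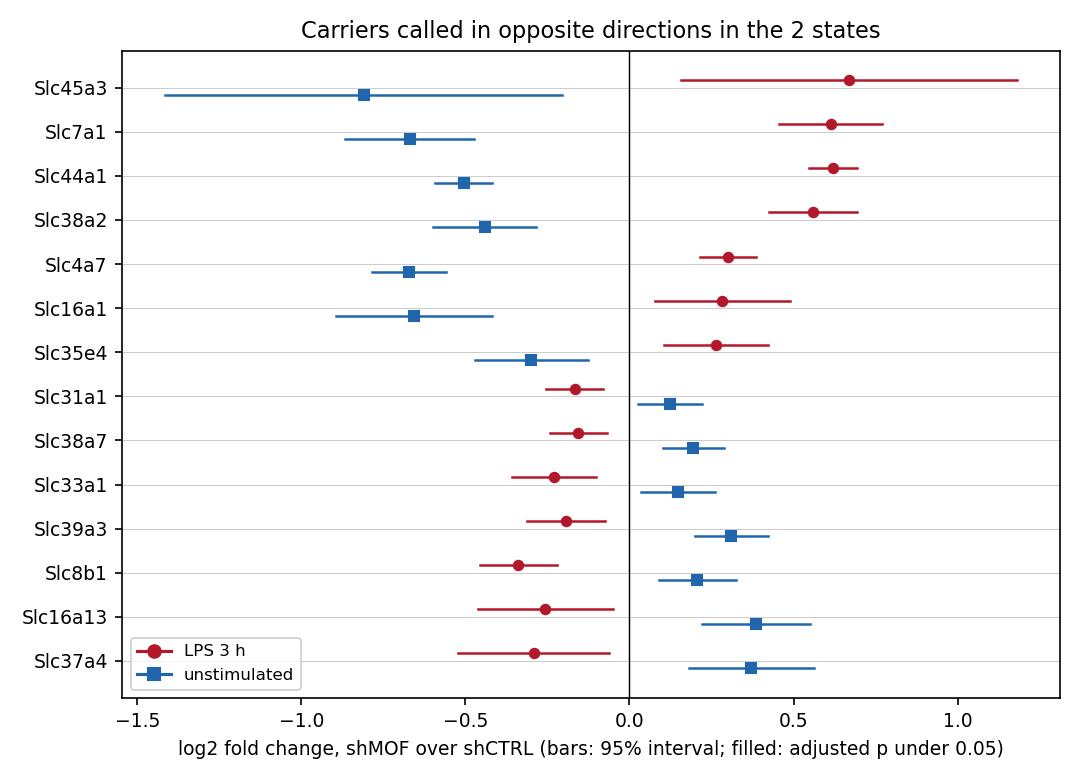
Log2 fold change of shMOF over shCTRL with its 95% interval for the 14 carriers called in opposite directions, LPS 3 h in red above unstimulated in blue, ordered by the difference. The upper 7 rose at LPS 3 h and fell unstimulated, and the lower 7 did the reverse.

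The 7 carriers with the reverse pattern, falling at LPS 3 h and rising unstimulated, include carriers of the ER, the mitochondrion, the lysosome and the plasma membrane. Slc37a4, the glucose-6-phosphate carrier of the ER, had -0.29 (SE 0.12, adjusted p = 0.0286) at LPS 3 h and 0.37 (SE 0.10, adjusted p = 0.000605) unstimulated, as the authors' deposited table lists it, a difference of -0.66 (SE 0.15, adjusted p = 0.000118). Slc8b1, the sodium and calcium exchanger of the inner mitochondrial membrane, had -0.34 (SE 0.06) and 0.21 (SE 0.06) according to the authors' deposited table. Slc39a3, a zinc importer gene, had -0.19 (SE 0.06) and 0.31 (SE 0.06) (values of the authors' deposited table). The largest of these 7 in size at LPS 3 h was that of Slc8b1.

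The other 4 include carriers of glutamine, copper and acetyl-CoA. Slc38a7, a glutamine exporter of the lysosome, had -0.16 (SE 0.04) at LPS 3 h and 0.19 (SE 0.05) unstimulated, going by the authors' deposited table. Slc16a13 of the monocarboxylate family had -0.26 (SE 0.10) and 0.39 (SE 0.08), from the authors' deposited table. Slc31a1, the copper importer CTR1, had -0.17 (SE 0.04) and 0.12 (SE 0.05), and Slc33a1, which brings acetyl-CoA into the ER, had -0.23 (SE 0.07) and 0.15 (SE 0.06), per the authors' deposited table. The unstimulated calls of Slc31a1 and Slc33a1 were lost after centring of the fold changes. Slc33a1 shares 32% of its exon bases with a gene on the opposite strand, and it is not stated whether the authors counted by strand.

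Amino acid and peptide carriers, classed by family number, are the largest class, with 30 genes. The class also holds the purine nucleobase carrier gene Slc43a3 and the creatine carrier gene Slc6a8, so its counts belong to the families and not to a cargo. At LPS 3 h 6 of the 30 rose and 9 fell, and unstimulated 9 rose and 8 fell, with medians of -0.02 and 0.04. These shares were 20% and 30% at LPS 3 h, against 29.8% and 21.3% of the 12994 genes with a mean of at least 10. Unstimulated they were 30% and 26.7%, against 23.2% and 19.4%. The class moved in both directions. Its difference was called higher at LPS 3 h for 6 genes and lower for 11, against 18.2% and 12.4% of the 12994 genes. Within SLC7 the arginine carriers differed. Beside Slc7a1, Slc7a2, the CAT-2 carrier that supplies arginine to nitric oxide synthase in activated macrophages, had -0.09 (SE 0.06) at LPS 3 h, which did not pass, and fell unstimulated, with -0.77 (SE 0.23, adjusted p = 0.00350), as the authors' deposited table lists it. Slc7a7, which exports cationic amino acids as a partner of Slc3a2, rose alike in both states, by 0.59 (SE 0.06) and 0.61 (SE 0.09) according to the authors' deposited table. Its relative Slc7a6 fell in both, with -0.39 (SE 0.09) and -0.63 (SE 0.10) (values of the authors' deposited table). Slc7a8, the neutral amino acid exchanger LAT2, had 0.03 (SE 0.07) at LPS 3 h and rose by 0.40 (SE 0.08) unstimulated, going by the authors' deposited table, a difference of -0.36 (SE 0.10, adjusted p = 0.00274).

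Among sodium-coupled and neutral amino acid carriers, Slc38a1, a relative of Slc38a2, rose by 0.17 (SE 0.04) at LPS 3 h and had -0.03 (SE 0.05) unstimulated, from the authors' deposited table. Slc1a4, the carrier ASCT1 for serine, alanine and cysteine, rose by 0.97 (SE 0.17) at LPS 3 h, with 0.23 (SE 0.24) unstimulated, per the authors' deposited table, and the glutamine carrier gene Slc1a5 had 0.19 (SE 0.09, adjusted p = 0.0539) and -0.03 (SE 0.09). Slc43a2, an exporter of large neutral amino acids, fell at LPS 3 h, with -0.31 (SE 0.05), and had 0.06 (SE 0.06) unstimulated, as the authors' deposited table lists it. The creatine carrier gene Slc6a8 fell less at LPS 3 h, with -0.15 (SE 0.05), than unstimulated, with -0.54 (SE 0.06) according to the authors' deposited table, a difference of 0.39 (SE 0.08, adjusted p = 4.06e-06). The taurine carrier gene Slc6a6 was not called in either state, with 95% interval -0.08 to 0.15 at LPS 3 h and 95% interval -0.19 to 0.07 unstimulated in log2 units.

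**Figure D4:**
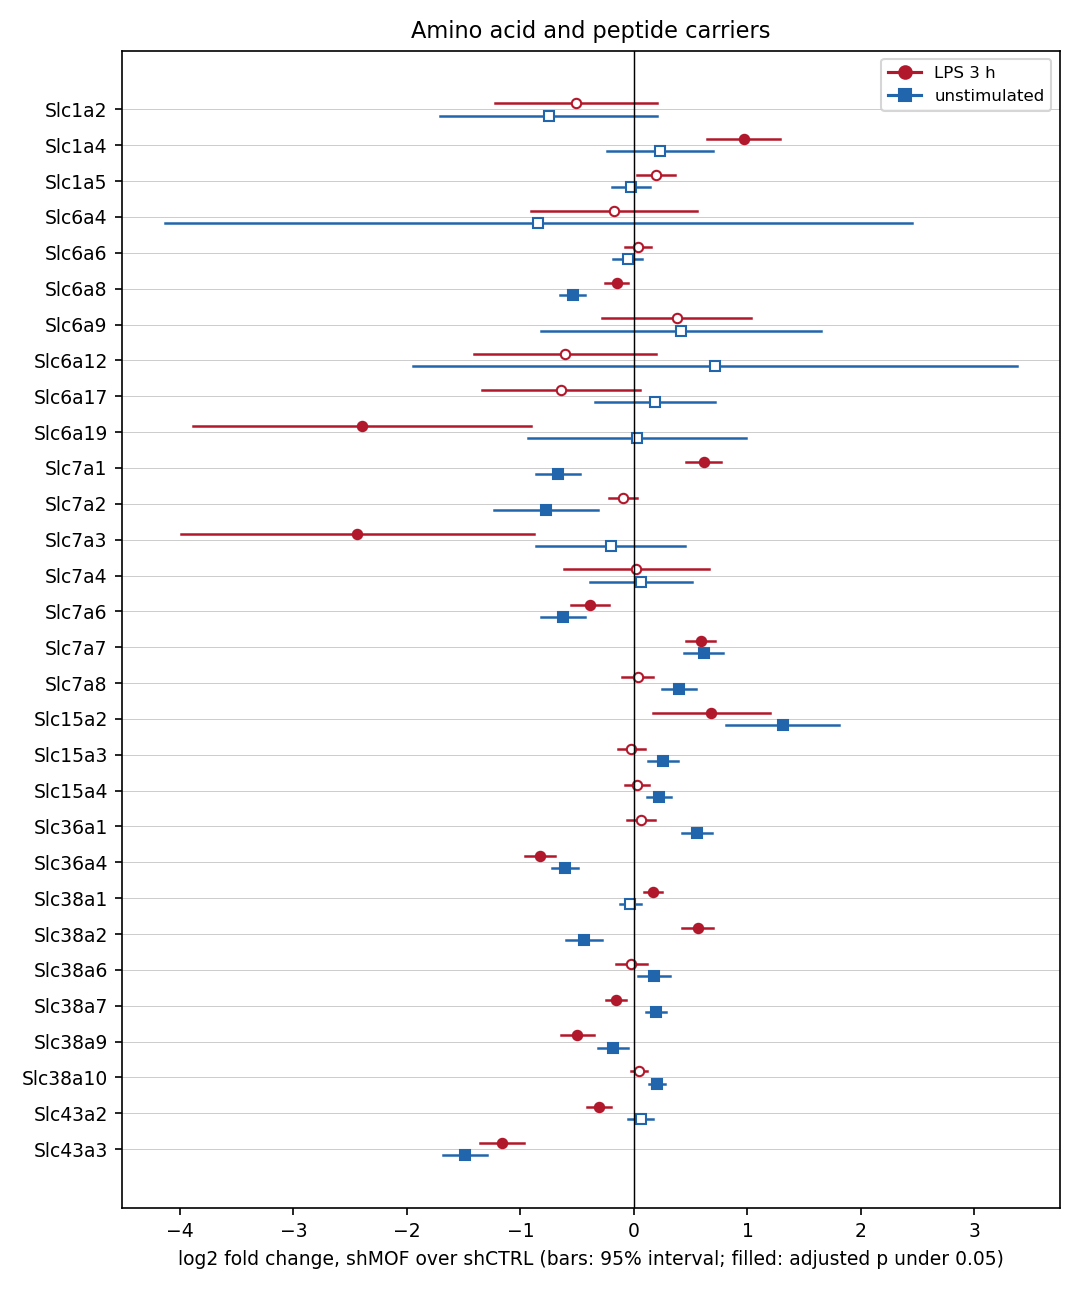
Log2 fold change of shMOF over shCTRL with its 95% interval for the 30 genes classed by family number as amino acid and peptide carriers, LPS 3 h in red above unstimulated in blue, filled where called. Slc7a1 and Slc38a2 lie on opposite sides of 0 in the 2 states, Slc43a3 and Slc36a4 are low in both, and genes with few reads such as Slc6a4 and Slc7a3 have wide intervals.

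Carriers of the lysosome and endosome are a group that cuts across substrate classes. Of 16 measured, 6 rose and 5 fell at LPS 3 h, and 9 rose and 3 fell unstimulated, with medians of 0.04 and 0.19. The shares that rose and fell were 37.5% and 31.25% at LPS 3 h, against 29.8% and 21.3% of the 12994 genes. Unstimulated they were 56.25% and 18.75%, against 23.2% and 19.4%. The difference was lower at LPS 3 h for 9 and higher for 2, where it was lower for 12.4% and higher for 18.2% of the 12994 genes. With the empirical null 0 of all carriers had a lower difference. The counts describe the group and were not tested as a list. Slc36a1, which exports amino acids from lysosomes with protons, had 0.06 (SE 0.06) at LPS 3 h and rose by 0.56 (SE 0.07) unstimulated (values of the authors' deposited table), a difference of -0.49 (SE 0.09, adjusted p = 1.79e-06). Slc15a3 and Slc15a4, which export histidine and bacterial peptides from endolysosomes, had -0.02 (SE 0.06) and 0.02 (SE 0.05) at LPS 3 h and rose by 0.26 (SE 0.07) and 0.22 (SE 0.05) unstimulated, going by the authors' deposited table. Slc15a3 has a mean normalized count of 26800 and shares 28.1% of its exon bases with Tmem132a on the opposite strand.

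Other lysosomal carriers fell. Slc36a4 had -0.83 (SE 0.07) at LPS 3 h and -0.61 (SE 0.06) unstimulated, and Slc38a9, the arginine sensor of the mTORC1 pathway, had -0.50 (SE 0.07) and -0.18 (SE 0.07), from the authors' deposited table. Slc48a1, the heme exporter HRG1 that serves iron recycling, had -0.49 (SE 0.04) and -0.30 (SE 0.05), per the authors' deposited table, a difference of -0.19 (SE 0.06, adjusted p = 0.0106). Slc29a3, the lysosomal nucleoside carrier ENT3, fell at LPS 3 h, with -0.56 (SE 0.08), and had -0.09 (SE 0.08) unstimulated, as the authors' deposited table lists it. Slc17a5, the sialic acid exporter sialin, rose slightly in both states, by 0.13 (SE 0.05) and 0.22 (SE 0.05) according to the authors' deposited table, and the first call was lost after centring. Slc12a9 had -0.20 (SE 0.11) and 0.37 (SE 0.11) (values of the authors' deposited table), with only the rise in unstimulated cells called.

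Metal carriers gave the most rises of any class by count at LPS 3 h, 11 of 23 with 6 falls, while unstimulated 5 rose and 2 fell. By share the rises at LPS 3 h were 47.8%, near the 46.2% of sugar carriers, against 29.8% of the 12994 genes. The falls were 26.1%, against 21.3% of those genes. Unstimulated the shares were 21.7% and 8.70%, against 23.2% and 19.4%. Medians were 0.19 and 0.03. The difference was called higher at LPS 3 h for 7 of the 23 genes and lower for 4, against 18.2% and 12.4% of the 12994 genes. Zinc carriers gave 10 of the 11 rises at LPS 3 h. Of 12 measured ZIP genes (Slc39), which raise cytosolic zinc, 6 rose and 2 fell at LPS 3 h, against 3 rises and 0 falls unstimulated. Of 6 ZnT genes (Slc30), most of which lower it, 4 rose and 1 fell at LPS 3 h. None was called unstimulated by DESeq2's adjusted p, where Slc30a9 at 0.11 (SE 0.05, adjusted p = 0.0533) was nearest, going by the authors' deposited table.

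Slc30a4, which moves zinc into endosomes, gave the widest contrast among zinc genes, with 1.01 (SE 0.06, adjusted p = 1.52e-53) at LPS 3 h and -0.06 (SE 0.08) unstimulated, from the authors' deposited table, a difference of 1.08 (SE 0.10, adjusted p = 1.71e-23). It spans chromosome 2, bases 122681233 to 122702663, on the minus strand of GRCm38. Slc39a12 rose by 0.98 (SE 0.10) at LPS 3 h and Slc39a14, the zinc and iron importer ZIP14 that is known as an acute-phase gene, by 0.63 (SE 0.05), per the authors' deposited table. Unstimulated, Slc39a12 had 0.03 (SE 0.10) and Slc39a14 had -0.0022 (SE 0.07), as the authors' deposited table lists it. The rises of these 3 genes were called at LPS 3 h only, and each difference passed: 0.95 (SE 0.15, adjusted p = 3.13e-09) for Slc39a12 and 0.63 (SE 0.08, adjusted p = 1.55e-13) for Slc39a14.

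Zinc carriers of the plasma membrane were among the rises at LPS 3 h. Slc39a8 and Slc39a10 rose by 0.54 (SE 0.08) and 0.48 (SE 0.06) there, and Slc30a1, the zinc exporter ZnT1, by 0.34 (SE 0.06) according to the authors' deposited table. Slc39a1, the most abundant zinc carrier per length, rose in both states, by 0.32 (SE 0.04) at LPS 3 h and 0.23 (SE 0.05) unstimulated (values of the authors' deposited table). Slc39a9 had 0.10 (SE 0.05) and 0.34 (SE 0.05), the second called, going by the authors' deposited table. Beside Slc39a3, the zinc carriers that fell at LPS 3 h serve the secretory pathway: Slc30a5 had -0.21 (SE 0.05) and Slc39a7 -0.29 (SE 0.10), from the authors' deposited table. Other zinc carriers listed for the Golgi apparatus and the ER did not fall there. Slc30a6 rose by 0.21 (SE 0.08), and Slc30a7 at -0.05 (SE 0.05) and Slc39a13 at -0.04 (SE 0.07) were not called, per the authors' deposited table. Slc39a7 shares 80.7% of its exon bases with another annotated gene on the same strand, so its values are uncertain.

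Genes that answer to zinc, a list of 3, were read beside them. The metallothionein genes Mt1 and Mt2, zinc-binding proteins induced by the zinc sensor MTF1, rose in both states, Mt1 by 0.80 (SE 0.05) at LPS 3 h and 0.57 (SE 0.05) unstimulated, Mt2 by 1.28 (SE 0.08) and 0.93 (SE 0.10), per the authors' deposited table. Their effects were higher at LPS 3 h by 0.22 (SE 0.07) and 0.35 (SE 0.13), with adjusted p = 0.00750 and 0.0288. Mtf1 itself fell at LPS 3 h, with -0.14 (SE 0.06, adjusted p = 0.0298), and had -0.04 (SE 0.06) unstimulated, as the authors' deposited table lists it. Other metal carriers were mixed: Slc31a2, a relative of the copper importer, rose by 0.30 (SE 0.05) and 0.36 (SE 0.06), while the magnesium carrier genes Slc41a1, with -0.28 (SE 0.08) and -0.62 (SE 0.09), and Slc41a3, with -0.39 (SE 0.07) and -0.19 (SE 0.07), fell in both states according to the authors' deposited table.

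**Figure D5:**
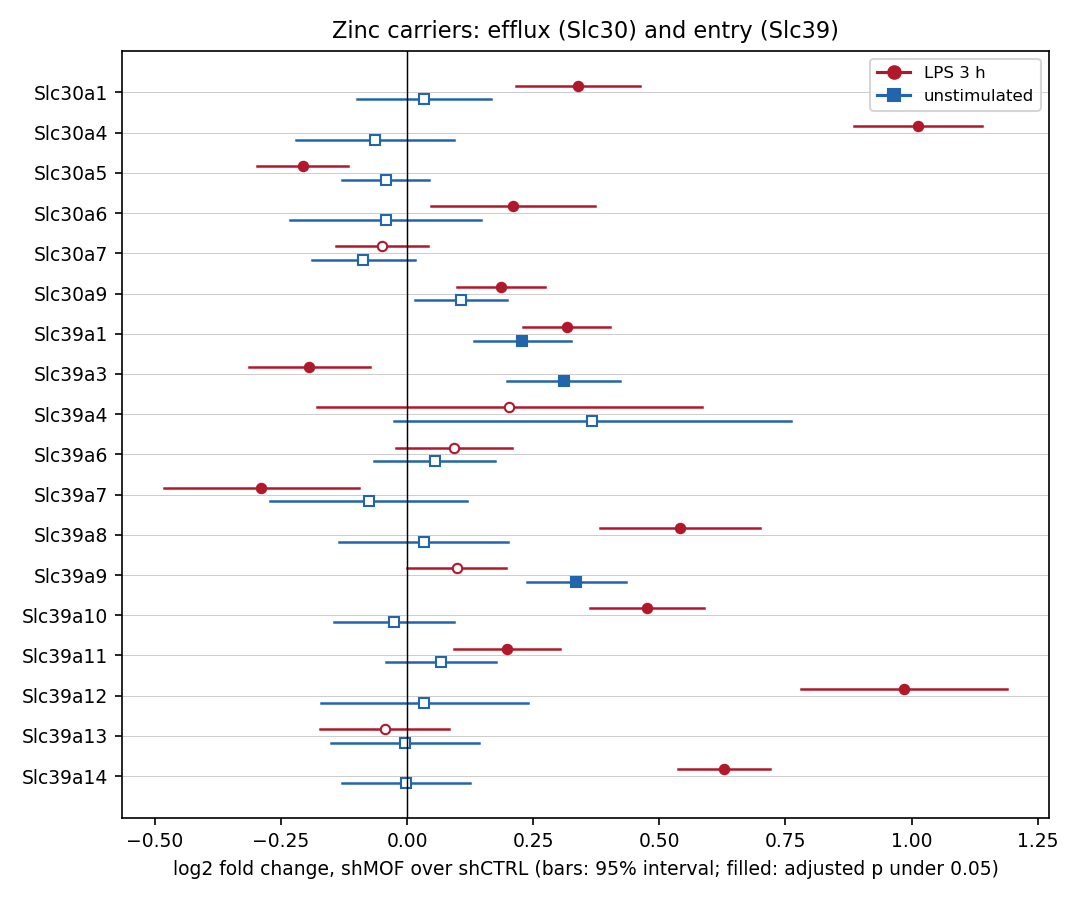
Log2 fold change of shMOF over shCTRL with its 95% interval for the 6 measured Slc30 and 12 measured Slc39 genes, LPS 3 h in red above unstimulated in blue, filled where called. Slc30a4, Slc39a12, Slc39a14, Slc39a8 and Slc39a10 lie right of 0 at LPS 3 h and near 0 unstimulated.

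Sugar carriers had 6 rises and 2 falls of 13 at LPS 3 h and 5 and 2 unstimulated, with medians of 0.20 and 0.16. Their shares were 46.2% and 15.4% at LPS 3 h, against 29.8% and 21.3% of the 12994 genes. Unstimulated they were 38.5% and 15.4%, against 23.2% and 19.4%. Of 4 SLC2 carriers here, the hexose carriers of the GLUT family without Slc2a1, 1 was called in each state. Slc2a6, a lysosomal hexose carrier, rose by 0.33 (SE 0.09) at LPS 3 h with 0.19 (SE 0.11) unstimulated, and Slc2a8 had 0.20 (SE 0.10) at LPS 3 h and rose by 0.33 (SE 0.10) unstimulated (values of the authors' deposited table). Slc2a3, the neuronal-type glucose carrier GLUT3, had 0.08 (SE 0.16) and -0.29 (SE 0.13), going by the authors' deposited table, neither called. The larger changes lay in SLC37, SLC45 and SLC5.

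Among sugar phosphate carriers, Slc37a2, abundant in macrophages, rose in both states, by 0.46 (SE 0.05) at LPS 3 h and 0.33 (SE 0.05) unstimulated, from the authors' deposited table. Slc37a3 fell in both, with -0.69 (SE 0.10) and -0.67 (SE 0.09), and Slc37a1 rose by 0.72 (SE 0.17) at LPS 3 h with 0.13 (SE 0.14) unstimulated, per the authors' deposited table. Each of the 4 measured SLC37 genes thus had a pattern of its own. Slc5a3, the sodium and myo-inositol carrier SMIT1 that answers to osmotic stress, rose by 0.91 (SE 0.13) at LPS 3 h with 0.16 (SE 0.15) unstimulated, as the authors' deposited table lists it, a difference of 0.74 (SE 0.20, adjusted p = 0.00134). Slc45a4 rose less at LPS 3 h, by 0.23 (SE 0.09), than unstimulated, by 0.77 (SE 0.08) according to the authors' deposited table, a difference of -0.54 (SE 0.12, adjusted p = 8.53e-05), and its LPS 3 h call was lost after centring.

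Carriers of carboxylates had 3 rises and 4 falls of 9 at LPS 3 h (33.3% and 44.4%) and 3 and 2 unstimulated (33.3% and 22.2%). Among the 12994 genes these shares were 29.8% and 21.3% at LPS 3 h, and 23.2% and 19.4% unstimulated. Lactate carriers moved apart at LPS 3 h: beside the rise of Slc16a1, Slc16a3, the lactate exporter MCT4 of glycolytic cells, fell, with -0.42 (SE 0.07), and had -0.15 (SE 0.07) unstimulated (values of the authors' deposited table). Slc16a7, the MCT2 carrier, rose by 0.25 (SE 0.08) at LPS 3 h with 0.06 (SE 0.08) unstimulated, going by the authors' deposited table. Slc16a6 fell at LPS 3 h, with -0.61 (SE 0.07), and had -0.16 (SE 0.08) unstimulated, from the authors' deposited table, and shares 23.5% of its exon bases with other genes. Slc16a10, which moves aromatic amino acids despite its family number, rose by 0.23 (SE 0.04) and 0.21 (SE 0.05), per the authors' deposited table. Slc13a3, a sodium-coupled carrier of succinate and other dicarboxylates, had 0.19 (SE 0.10) at LPS 3 h and rose by 0.87 (SE 0.13) unstimulated, as the authors' deposited table lists it, a difference of -0.68 (SE 0.17, adjusted p = 0.000338).

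Of 20 SLC35 genes, classed by family number as nucleotide sugar carriers, 10 fell and 3 rose at LPS 3 h, and 7 fell and 5 rose unstimulated. At LPS 3 h these are 50% and 15%, against 21.3% and 29.8% of the 12994 genes. In unstimulated cells they are 35% and 25%, against 19.4% and 23.2%. Orphans such as Slc35a5 and Slc35e4 are among the 20, so the counts belong to the family and not to a cargo. Medians were -0.10 and -0.06. Slc35c1, the GDP-fucose carrier of the Golgi apparatus, had 0.13 (SE 0.08) at LPS 3 h and rose by 0.78 (SE 0.07, adjusted p = 3.55e-27) unstimulated according to the authors' deposited table, a difference of -0.65 (SE 0.11, adjusted p = 2.52e-08). Carriers for UDP-galactose (Slc35a2) and the sulphate donor PAPS (Slc35b2) had -0.06 (SE 0.07) and 0.0038 (SE 0.05) at LPS 3 h and rose by 0.29 (SE 0.06) and 0.21 (SE 0.05) unstimulated (values of the authors' deposited table). Slc35a3, for UDP-N-acetylglucosamine, rose by 0.36 (SE 0.06) at LPS 3 h with 0.04 (SE 0.07) unstimulated, going by the authors' deposited table. Unstimulated rises in this family did not reach the threshold at LPS 3 h in any of the 5 genes, and the differences of Slc35c1, Slc35a2 and Slc35b2 passed, with -0.35 (SE 0.09) and -0.21 (SE 0.07) for Slc35a2 and Slc35b2.

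At LPS 3 h the falls in the family were largest in Slc35a5 and in Slc35f6, which had -0.76 (SE 0.05) at LPS 3 h and -0.36 (SE 0.05) unstimulated, from the authors' deposited table. Slc35e2 had -0.42 (SE 0.12) and 0.19 (SE 0.10), per the authors' deposited table, a difference of -0.61 (SE 0.15, adjusted p = 0.000618). Of the 18 carriers listed for the Golgi apparatus and the ER, which include zinc and acetyl-CoA carriers, 2 rose and 9 fell at LPS 3 h and 6 rose and 1 fell unstimulated. At LPS 3 h these are 11.1% and 50%, against 29.8% and 21.3% of the 12994 genes. In unstimulated cells they are 33.3% and 5.56%, against 23.2% and 19.4%. The list was not tested, was made with earlier results of these data known, and leaves out part of the SLC35 family. Slc35a4, Slc35a5, Slc35e3, Slc35e4, Slc35f6 and Slc35g1, which fell unstimulated, are not on it. Its low share of unstimulated falls thus depends on which genes were listed. The one gene of the list that fell unstimulated was Slc35d1, with -0.29 (SE 0.10) at LPS 3 h and -0.41 (SE 0.10) unstimulated, as the authors' deposited table lists it. The difference was lower at LPS 3 h for 7 of these 18 and higher for 1, where it was lower for 12.4% and higher for 18.2% of the 12994 genes. Called changes in the list at LPS 3 h were small, between -0.40 for Slc10a7 and 0.36 for Slc35a3 according to the authors' deposited table.

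Carriers of bicarbonate, chloride and sulphate had 5 rises and 1 fall of 13 at LPS 3 h (38.5% and 7.69%) and 2 and 1 unstimulated (15.4% and 7.69%). For the 12994 genes the shares were 29.8% and 21.3% at LPS 3 h, and 23.2% and 19.4% unstimulated. Slc12a4, the potassium and chloride carrier KCC1 of cell volume control, rose by 0.54 (SE 0.05, adjusted p = 4.20e-29) at LPS 3 h, with -0.00076 (SE 0.05) unstimulated (values of the authors' deposited table), a difference of 0.54 (SE 0.07, adjusted p = 2.07e-12). Its relative Slc12a7 rose by 0.38 (SE 0.08) at LPS 3 h, with 0.13 (SE 0.08) unstimulated, going by the authors' deposited table. The sodium, potassium and chloride importer gene Slc12a2, which swells cells where the KCC carriers shrink them, had 0.18 (SE 0.12) and -0.18 (SE 0.13), from the authors' deposited table, neither called. The 1 fall at LPS 3 h was that of the anion exchanger gene Slc4a3, at -0.54 (SE 0.20), per the authors' deposited table.

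Exchangers of sodium, protons and calcium had 4 rises and 1 fall of 11 at LPS 3 h (36.4% and 9.09%) and 5 and 2 unstimulated (45.5% and 18.2%). The 12994 genes had 29.8% and 21.3% at LPS 3 h, and 23.2% and 19.4% unstimulated. Beside Slc24a3, the plasma membrane sodium and calcium exchanger gene Slc8a1 rose in both states, by 0.54 (SE 0.09) and 0.38 (SE 0.09), as the authors' deposited table lists it. The endosomal sodium and proton exchanger gene Slc9a9 rose by 0.60 (SE 0.11) at LPS 3 h, with 0.15 (SE 0.12) unstimulated according to the authors' deposited table. Slc9a5 had -0.09 (SE 0.17) at LPS 3 h and fell unstimulated, with -0.47 (SE 0.14) (values of the authors' deposited table). Of the 2 phosphate carriers, Slc20a2 had 0.08 (SE 0.09) and -0.03 (SE 0.08), going by the authors' deposited table, neither called, beside the fall of Slc20a1.

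Lipid, choline, bile acid and acetyl-CoA carriers had 2 rises and 3 falls of 8 at LPS 3 h (25% and 37.5%) and 1 and 1 unstimulated (12.5% each). Across the 12994 genes the shares were 29.8% and 21.3% at LPS 3 h, and 23.2% and 19.4% unstimulated. Beside Slc44a1, its relative Slc44a2 had -0.18 (SE 0.06) at LPS 3 h, a fall, and -0.02 (SE 0.07) unstimulated, from the authors' deposited table, so both choline-like genes were called at LPS 3 h in opposite directions. Slc27a1, the fatty acid transport protein FATP1, rose by 0.13 (SE 0.04) at LPS 3 h with 0.09 (SE 0.04) unstimulated, per the authors' deposited table. Slc10a7 fell at LPS 3 h, with -0.40 (SE 0.08), and had -0.08 (SE 0.08) unstimulated, as the authors' deposited table lists it.

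Vitamin and heme carriers had 2 rises and 4 falls of 7 at LPS 3 h (28.6% and 57.1%) and 2 and 1 unstimulated (28.6% and 14.3%). In the 12994 genes the shares were 29.8% and 21.3% at LPS 3 h, and 23.2% and 19.4% unstimulated. Slc23a2, the ascorbate carrier SVCT2, rose by 0.37 (SE 0.05) at LPS 3 h and 0.16 (SE 0.05) unstimulated according to the authors' deposited table. Slc19a2, the thiamine carrier THTR1, fell at LPS 3 h, with -0.55 (SE 0.11), and had 0.12 (SE 0.09) unstimulated (values of the authors' deposited table), a difference of -0.67 (SE 0.14, adjusted p = 2.66e-05). The folate carrier genes Slc19a1 and Slc46a1 had -0.19 (SE 0.13) and -0.34 (SE 0.13) at LPS 3 h and -0.21 (SE 0.13) and -0.11 (SE 0.11) unstimulated, going by the authors' deposited table, of which the LPS 3 h fall of Slc46a1 was called. The riboflavin carrier gene Slc52a2 fell at LPS 3 h, with -0.29 (SE 0.10), and had -0.23 (SE 0.10) unstimulated, from the authors' deposited table.

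Organic ion carriers here belong to SLCO and SLC22. The 3 SLCO calls at LPS 3 h were rises: beside Slco2b1 and Slco5a1, Slco3a1 rose by 0.23 (SE 0.07), per the authors' deposited table, while Slco4a1 had 0.20 (SE 0.19), not called. Of 5 SLC22 genes 4 fell at LPS 3 h and none rose, and 2 fell unstimulated. Of the 12994 genes 29.8% rose and 21.3% fell at LPS 3 h, and 19.4% fell unstimulated. Slc22a5, the carnitine carrier OCTN2, fell at LPS 3 h, with -0.47 (SE 0.09), and had -0.12 (SE 0.08) unstimulated, as the authors' deposited table lists it. Its relatives Slc22a4 and Slc22a21 had -0.38 (SE 0.12) and -0.71 (SE 0.21) at LPS 3 h and -0.41 (SE 0.12) and -0.10 (SE 0.20) unstimulated according to the authors' deposited table, all called but the last.

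Of 4 nucleoside carriers 0 rose and 1 fell in each state, a different gene each time. Falls were thus 25%, against 21.3% of the 12994 genes at LPS 3 h and 19.4% unstimulated, and 29.8% and 23.2% of those genes rose. Slc29a1, the equilibrative nucleoside carrier ENT1 of the plasma membrane, had 0.02 (SE 0.05) at LPS 3 h and fell unstimulated, with -0.27 (SE 0.05) (values of the authors' deposited table), a difference of 0.28 (SE 0.07, adjusted p = 0.000753), while Slc29a3 fell at LPS 3 h. Slc28a2, a concentrative carrier gene with a mean normalized count of 3125, had a wide 95% interval -0.15 to 0.44 at LPS 3 h and 95% interval -0.30 to 0.37 unstimulated in log2 units. Of 5 vesicular carriers, Slc18a1, the vesicular monoamine carrier VMAT1 at a mean normalized count of 59, fell at LPS 3 h, with -0.61 (SE 0.24), and had -0.01 (SE 0.23) unstimulated, going by the authors' deposited table.

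Levels could be ordered only as 1 mean over libraries and per kb of annotated exon. Slc48a1 was first, at 5730 mean normalized counts per kb, followed by Slc15a3 at 4881, Slc39a1 at 3460, Slc31a2 at 3336, Slc6a6 at 2361 and Slc7a8 at 2235. The tables give no spread for these levels, so neighbours in the order cannot be told apart by it. The 6 first carriers per kb are known for heme, endolysosomal peptides, zinc, copper, taurine and neutral amino acids. Mean normalized counts of the 158 genes ran from 10.2 to 26800, with a median of 694.

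Proteins that carriers depend on were read from a list of 15, of which 14 were measured: 6 rose and 2 fell at LPS 3 h and 6 rose and 3 fell unstimulated. At LPS 3 h these are 42.9% and 14.3%, against 29.8% and 21.3% of the 12994 genes. In unstimulated cells they are 42.9% and 21.4%, against 23.2% and 19.4%. The list was not tested. Bsg and Emb, chaperones that bring monocarboxylate carriers to the plasma membrane, rose in both states, Bsg by 0.12 (SE 0.04) and 0.14 (SE 0.04) and Emb by 0.54 (SE 0.07) and 0.39 (SE 0.08), from the authors' deposited table. The ubiquitin ligase gene Nedd4l, known for removing carriers and channels from the membrane, rose by 0.76 (SE 0.06) at LPS 3 h and fell unstimulated, with -0.18 (SE 0.07), per the authors' deposited table. The arrestin genes Txnip, which lowers glucose carriers at the surface, and Arrdc3 fell, with -0.28 (SE 0.05) and -0.74 (SE 0.15) at LPS 3 h, against 0.35 (SE 0.05), a rise, and -0.09 (SE 0.16) unstimulated, as the authors' deposited table lists it.

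Of the 7 carriers left out by symbol, 3 rose and 1 fell at LPS 3 h, against 29.8% and 21.3% of the 12994 genes. Unstimulated, 2 of this set rose and 3 fell, against 23.2% and 19.4%. Among the amino acid carriers of that set, Slc7a5 had 0.44 (SE 0.12) at LPS 3 h and -1.01 (SE 0.17) unstimulated and Slc7a11 had 0.60 (SE 0.11) and -0.39 (SE 0.15), a rise and a fall each, while Slc3a2, the partner chain of both, fell in both, with -0.72 (SE 0.04) and -0.59 (SE 0.05) according to the authors' deposited table. Of the 4 rows that are no carrier, the scaffold gene Slc9a3r1 had 0.13 (SE 0.06) and 0.23 (SE 0.07), the second called, and Slc7a6os, a gene beside Slc7a6, had 0.16 (SE 0.07, adjusted p = 0.0493) and 0.21 (SE 0.07) (values of the authors' deposited table), a first call that centring removed. Just below the minimum mean, Slc35g2 at 9.82 had 1.81 (SE 0.40) at LPS 3 h and -0.64 (SE 0.51) unstimulated, and just above it Slc27a3 at 10.2 had -0.93 (SE 0.48) and 0.31 (SE 0.37), going by the authors' deposited table.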

How the data were processed

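RNA from 12 macrophage libraries, 3 in each of 4 groups, was made into stranded, paired-end mRNA libraries, per the labels' protocols. The authors deposited 2 comparison tables; per the submitters' processing notes DESeq2 and the mouse build mm10 were used. Per the file headers they hold the mean normalized count (a signal that is never negative), the log2 fold change and its SE, the Wald score, and the p-value with its adjusted value. The aligner, the counter, the annotation and the strand setting of the counting were not given in the sources used here. Whether the fit held all 12 libraries is not stated, and depth per library is unknown. In the deposited tables the p-value was the two-sided normal p of the Wald score and the adjusted p its Benjamini-Hochberg value over the genes that have one.

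The difference between states was the LPS 3 h fold change minus the unstimulated one divided by the combined SE of both. Its p was that of a two-sided normal test, adjusted by Benjamini-Hochberg across the 12994 genes with a mean of at least 10. It takes the errors of the 2 tables as uncorrelated. Intervals of 95% are the fold change and its SE under the normal distribution. Python 3.11.15, pandas 2.3.3, scipy 1.17.1 and statsmodels 0.14.6 were used, and the test of the difference was tested on simulated data.

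Gene positions and exon lengths came from GENCODE M21 on GRCm38, matched by gene ID for all 158 genes, of which 48 share exon bases with another gene and 16 more than 10%. Start sites and sequences came from RefSeq on GRCm38.p6.

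Members, gene lists and motifs were chosen with earlier results of these data known. Named genes were, per comparison, the 10 largest called rises and falls with a mean of at least 50, the smallest p in each direction per class, the 10 highest means, the genes called in opposite directions, the 8 largest differences each way, and list genes discussed. Other members named in the text were chosen after their values were seen. Alternatives moved the centre, the genes adjusted over, the threshold, the minimum change, the null and the member rule. The values of some single genes are not reported here.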

Additional observations from a re-analysis of the deposited data

Results flagged for a closer look

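The knockdown effect differed between the states, by the test of the difference itself, in 47 of 68 named members, 21 with a higher effect at LPS 3 h and 26 with a lower one. Part of these members were named for this difference, so the count is set in part by their choice. Over all 158 members the difference passed in 66, or 41.8%, against 30.6% of the 12994 genes. Values are the log2 effect at LPS 3 h minus the unstimulated effect. Higher at LPS 3 h among amino acid and peptide carriers were Slc7a1 by 1.28, Slc38a2 by 1.002, Slc1a4 by 0.73, Slc7a2 by 0.68 and Slc6a8 by 0.39. Higher at LPS 3 h among metal carriers were Slc30a4 by 1.08, Slc39a12 by 0.95, Slc39a14 by 0.63 and Slc41a1 by 0.34. Higher at LPS 3 h among SLC35 genes were Slc35e4 by 0.56 and Slc35a3 by 0.32. Higher at LPS 3 h among sugar carriers were Slc45a3 by 1.48, Slc5a3 by 0.74 and Slc37a1 by 0.59. Higher at LPS 3 h among other classes were Slco2b1 by 1.45, Slc44a1 by 1.12, Slc4a7 by 0.97, Slc16a1 by 0.94, Slc24a3 by 0.66, Slc12a4 by 0.54 and Slc29a1 by 0.28.

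Lower at LPS 3 h among amino acid and peptide carriers were Slc36a1 at -0.49, Slc43a2 at -0.37, Slc7a8 at -0.36, Slc38a7 at -0.35, Slc15a3 at -0.28 and Slc36a4 at -0.22. Lower at LPS 3 h among metal carriers were Slc39a3 at -0.50, Slc31a1 at -0.29 and Slc39a9 at -0.24. Lower at LPS 3 h among SLC35 genes were Slc35c1 at -0.65, Slc35e2 at -0.61 and Slc35f6 at -0.39. Lower at LPS 3 h among sugar carriers were Slc37a4 at -0.66 and Slc45a4 at -0.54. Lower at LPS 3 h among other classes were Slc17a9 at -0.99, Slc13a3 at -0.68, Slc19a2 at -0.67, Slc16a13 at -0.64, Slc12a9 at -0.58, Slc8b1 at -0.55, Slc29a3 at -0.47, Slc16a6 at -0.45, Slc33a1 at -0.38, Slc22a5 at -0.35, Slc10a7 at -0.32 and Slc48a1 at -0.19.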

How the results depend on the processing

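No paired analysis was possible because the deposited tables hold no value per library, and for the same reason no library could be left out in turn. Of 70 pairs of a count and an alternative, 49 stayed within 1.5 times the main count and 21 did not. Of 151 calls of named members, each under those of 7 alternatives that applied to it, 0 changed sign. Only median-centring and the empirical null could change a sign, so this count says nothing of the other alternatives. A minimum change of 0.5 (log2) left 20 rises and 17 falls at LPS 3 h, 9 and 17 unstimulated, and 19 higher and 13 lower differences. A minimum of 1 left 5 and 6 at LPS 3 h and 1 and 3 unstimulated. Testing for changes beyond 0.25 left 19 rises and 15 falls at LPS 3 h and 9 and 14 unstimulated. The empirical null left 7 and 6 at LPS 3 h, 3 and 8 unstimulated, and 7 higher and 0 lower differences. Its widths, 3.24, 2.53 and 2.28 for the 3 tests against 1 in theory, take every spread of the statistics over all genes as noise. A threshold of 0.01 left 24 lower differences. The share of rises among unstimulated calls, 56.9%, was 39.1% with the test beyond 0.25 and 34.6% with the minimum of 0.5. Of the named calls the empirical null ended 43 of 56 at LPS 3 h, 37 of 48 unstimulated and 40 of 47 differences. Median-centring gave 43 rises and 50 falls at LPS 3 h and 35 and 35 unstimulated. Adding the 7 carriers left out by symbol, or leaving out members that share over 10% of their exon bases, both chosen after seeing the data, kept each count within 1.5 times. Precision is limited by 3 libraries a group and, for low genes, by few reads.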
